A study of Mus musculus with 8 samples.

Results

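The genes described here encode the hnRNP proteins, the SR proteins and the core proteins of the spliceosomal snRNPs, and the values are their transcript signals in exosomes of a mouse mast cell line and in the cells that released them. Members were the array's probe sets whose single gene symbol begins with Hnrnp, Srsf, Sf3a, Sf3b or Snrp followed by letters or digits, or is U2af1 or U2af2. The rule used names only and no measured value. It found 141 of the 45101 probe sets, standing for 49 of the 18193 genes named on the array. Of these, 58 probe sets belonged to 19 hnRNP genes, 33 to 10 SR genes and 50 to 20 genes of snRNP, SF3 and U2AF proteins, the last grouped here as snRNP genes.

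Pre-mRNA splicing takes place in the nucleus, where small nuclear RNAs held in rings of Sm proteins assemble on an intron. U2AF reads the end of the intron, the U1 particle reads its start, and the SF3a and SF3b complexes of the U2 particle hold the branch site. SR proteins bind exons and mostly favour the use of nearby splice sites, while hnRNP proteins coat nascent transcripts and often counteract them. Several hnRNPs also shuttle to the cytoplasm, and the hnRNP A2/B1 protein is known from human T cells to bind miRNAs that enter exosomes. The arrays measured the transcripts of these genes and not their proteins.

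RNA of exosomes from the culture supernatant of MC/9, a growth-factor-dependent murine mast cell line, was compared with RNA of the parental MC/9 cells. Each group had 4 arrays, which the labels call biological replicates, with no treatment or genetic change in either group. Exosomes had been collected by differential centrifugation, filtration and ultracentrifugation. Per the labels' protocols the culture medium held fetal bovine serum and a supplement from rat T cells. Replicates 1 and 2 of both groups were hybridised in batch 1 and replicates 3 and 4 in batch 2, by the file headers, so each batch held both groups. In a bulk exosome extract, fewer vesicles that carry a transcript and less of it per vesicle cannot be told apart.

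The values were the deposited array signals, which have a trimmed mean of 100 on every array. A detection floor was set on each array at the 95th percentile of 150 background probe sets, those of beta-defensins, of keratin-associated proteins and of the taste, vomeronasal and olfactory receptors. It lay between 245.6 and 336 on the exosome arrays and between 10.5 and 16.5 on the cell arrays, so a weak transcript could be measured in cells and not in exosomes. Between 3.39% and 8.56% of all probe sets exceeded the floor on an exosome array, against 45.2% to 50.3% on a cell array. All 7 mast cell markers examined, Kit and Fcer1a among them, exceeded the floor on every cell array. None did on all 4 exosome arrays, and their summed signal ran from 1122 to 1491 there against 32814 to 38119 in cells. None of the 11 T cell, B cell and neutrophil markers with a probe set exceeded the floor on all 4 arrays of either group. Of the 3 macrophage markers 2 did so in cells, and the only erythroid marker with a probe set did so in neither group.

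Transcripts of the splicing genes were widely measurable in the cells and rarely in the exosomes. On the 4 cell arrays 130, 128, 128 and 128 of the 141 member probe sets exceeded the floor. On the 4 exosome arrays 17, 13, 15 and 10 did, which is 7.09% to 12.1% of the members per array. The hnRNP genes contributed 4, 5, 7 and 5 of these probe sets, the snRNP genes 10, 8, 7 and 4, and the SR genes 3, 0, 1 and 1. In the cells, 125 members exceeded the floor on all 4 arrays, or 88.7% of the members against 40.1% of all 45037 non-control probe sets. In the exosomes, 7 members did, or 4.96% against 1.44% of all, and 117 of 141 members did so on no array, where 85.7% of all probe sets did so on none. Among probe sets whose lowest cell signal was above the highest exosome floor, 6 of 75 members exceeded the floor on all exosome arrays, or 8% against 7.04% of all such probe sets.

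**Figure D1:**
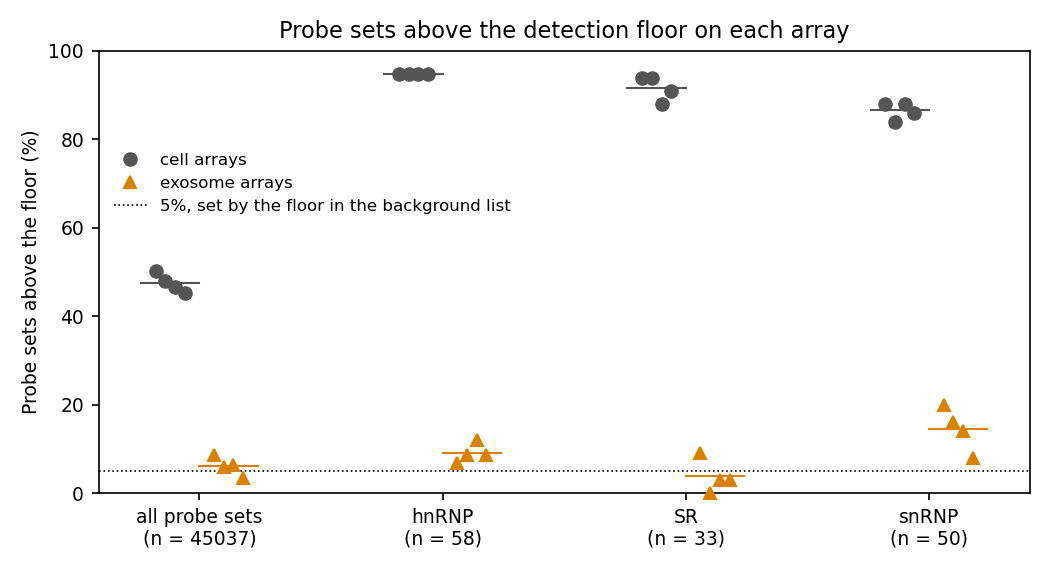
Percentage of all non-control probe sets and of hnRNP, SR and snRNP probe sets above the detection floor, 1 point per array with the group mean as a line and the 5% that the floor sets in the background probe sets dotted. Cell arrays lie far above exosome arrays in every class, with 128 to 130 of 141 members against 10 to 17.

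Across the members, the log2 signal profiles correlated with Pearson's r between 0.963 and 0.99 among cell arrays. Among exosome arrays r ran from 0.495 to 0.631, and between an exosome and a cell array from 0.149 to 0.362. These are descriptions across probe sets of the same arrays, which are not independent replicates.

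A probe set was tested if at least 3 arrays of either group exceeded the floor, which 127 members of 47 genes did. With limma on log2(signal + 4), Benjamini-Hochberg adjustment over all 20219 tested probe sets and a threshold of 0.05, 93 members were lower in exosomes and 6 were higher. The corresponding shares were 73.2% lower among tested members against 37.5% of all tested probe sets, and 4.72% higher against 17.9%. The remaining 28 tested members did not pass and 14 were not tested. The median difference of tested members was -2.84 on the log2 scale, against -0.69 over all tested probe sets. Every exosome array lay below every cell array in 93 tested members as well, though not the same ones throughout, since some called falls overlapped. Of all tested probe sets, 37.2% showed that pattern. In 3 tested members every exosome array lay above every cell array, against 16.4% of all tested probe sets. Within batch 1 alone 85 members were lower and 5 higher, where 30.2% and 13.5% of all tested probe sets were. Within batch 2 alone 86 were lower and 7 higher, against 31.5% and 19.7% of all. All 93 falls had the same direction in both batches. They were called on these same arrays, so this is no independent support.

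Each class had a similar balance of falls and rises, to be read beside 37.5% lower and 17.9% higher among all tested probe sets. Of 55 tested hnRNP probe sets 39 fell and 2 rose, with a median difference of -2.57. Of 30 SR probe sets 23 fell and 1 rose, with a median of -3.15. Of 42 snRNP probe sets 31 fell and 3 rose, with a median of -2.81. Within the last class, the Snrp genes had 12 falls and 1 rise among 15, the SF3 genes 18 falls and 2 rises among 25, and the U2AF genes 1 fall among 2. Differences between the classes were not tested, and the single classes were not set against probe sets of like brightness.

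**Figure D2:**
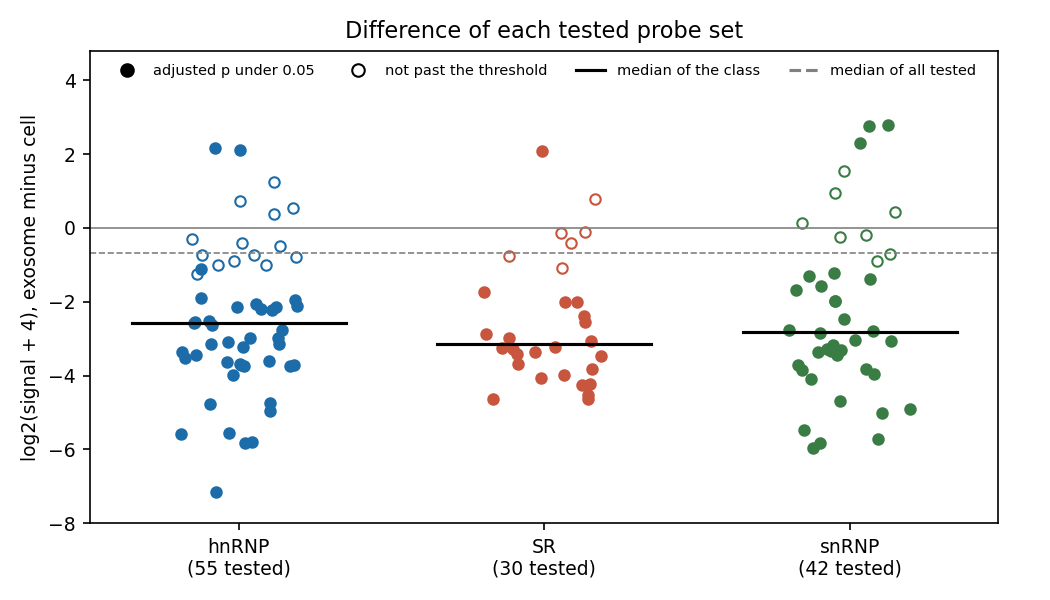
Exosome minus cell difference of log2(signal + 4) for each tested member probe set, by gene class, with filled points past the threshold, open points not past it, a solid line at each class median and a dashed line at -0.69, the median of all tested probe sets. Most points of each class lie below 0, with class medians of -2.57, -3.15 and -2.81, and 6 called members lie above it.

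The members were bright in the cells, with a median cell signal of 590 against 110 over all tested probe sets, and their falls have to be read against probe sets of like brightness. Among members with a median cell signal over 1000, 35 of 36 fell, where 98.2% of all such probe sets did. Between 500 and 1000, 30 of 34 members fell, against 96.1% of all. Between 100 and 500, 26 of 37 fell, against 54.2% of all. Under 100, 2 of 20 fell and 5 rose, against 4.84% and 35.9% of all. At cell signals over 500 the share of members that fell was therefore no higher than that of other probe sets of that brightness.

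**Figure D3:**
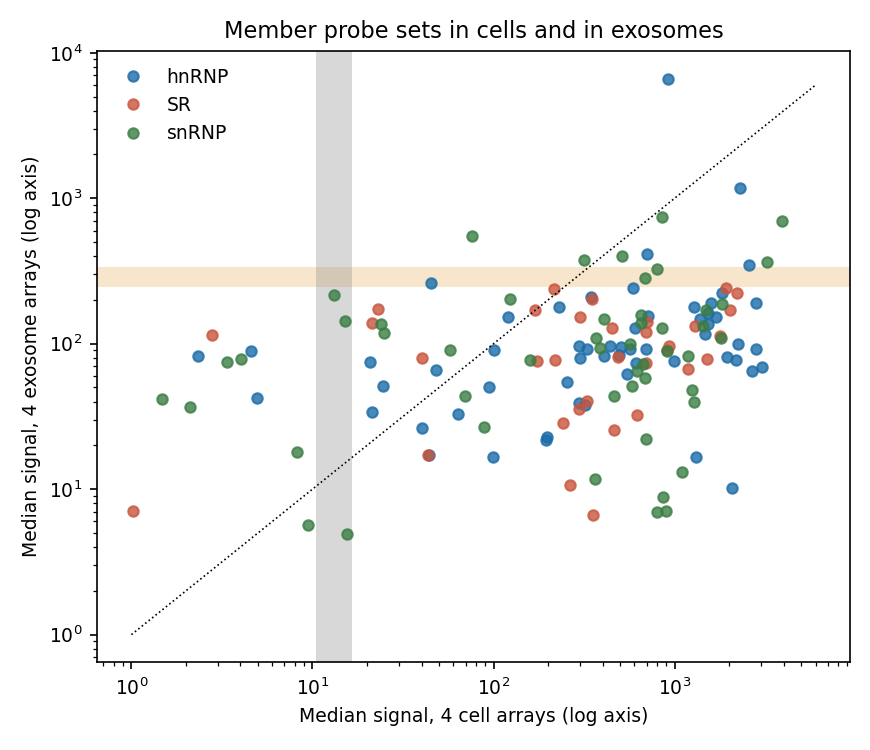
Median exosome signal against median cell signal of each member probe set, both on log axes, by gene class, with shaded bands for the exosome floors (245.6 to 336) and cell floors (10.5 to 16.5) and a dotted line of equal signal. Most members lie under the exosome floors whatever their cell signal.

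Because the exosome floor was high, the size of many falls is known only as a bound. Of the 93 falls, 81 were of members above the floor on no exosome array. For 59 members the lowest cell signal lay above the highest exosome floor while no exosome array passed its own floor, and all 59 were called lower. Their cell signal was at least 1.33-fold to at least 10.7-fold higher than that of the exosomes, with a median bound of 3.34-fold. A bound is the geometric mean of the cell signals over that of the exosome values, where a signal under its array's floor counts as that floor. Every bound in this text holds on the deposited scale only. The scaling to the median of probe sets detected on every array, given below, raises exosome signals against cell signals. The bounds would be smaller there. With every signal raised at least to its floor, 75 of the 93 falls were still called lower, 9 kept their sign without a call and 9 turned sign. The 9 that turned were probe sets of Hnrnpc, Hnrnpdl, Hnrnph3, Hnrnpu, Sf3b1, Srsf1, Srsf3, Srsf10 and Srsf11. In that setting 20.4% of all tested probe sets were lower and 67.6% higher.

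The deposited signals have the same trimmed mean on every array, while the background probe sets were brighter on the exosome arrays. The direction of the falls was therefore checked on other scales. Under the deposited scaling and 5 others, 92 of the 93 falls kept their direction and 86 stayed past the threshold in all 6. Scaling to the hybridisation controls, the poly-A controls or the mean of probe sets detected on every array lowers the exosome arrays against the cell arrays. The shifts are 4.51, 3.52 and 0.15 on the log2 scale. Subtracting the background median lowers them too, so these settings could not turn a fall. Of the 5, only quantile normalization could, and there 1 fall turned and 6 were not called. The exception in direction was Sf3a2 1455546_s_at, which turned under quantile normalization. The median difference of all tested probe sets moved from -0.69 to -1.51 with quantile normalization and to -2.36 with the background median subtracted. Scaling to the bacterial hybridisation controls moved it to -4.72, and scaling to the poly-A controls, which are added to the RNA before labelling, to -3.84. On those last scales 127 and 119 of 127 members were lower, where 94.3% and 79.4% of all tested probe sets were. A further scaling, chosen after the data were seen, set equal the median of the 432 probe sets detected on every array and moved the median of all tested probe sets the other way, to 0.29. There 75 members were lower and 14 higher, against 21.7% and 28.7% of all, and the 93 falls kept their direction with 18 no longer called.

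The 7 member probe sets above the floor on all 4 exosome arrays belonged to Hnrnpab, Hnrnpf (2 probe sets), Sf3b4, Snrpc, Snrpe and Snrpg. None belonged to an SR gene. Snrpe and Snrpg encode small proteins of the Sm ring that every major spliceosomal snRNP except U6 carries.

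Snrpg 1448358_s_at had exosome signals of 436, 645, 985 and 761 and cell signals of 3326, 2988, 4517 and 4645 on replicates 1 to 4. The groups were far apart, and the exosome level fell by 2.48 ± 0.30 (SE, n = 4 and 4) on the log2 scale, with limma's adjusted p = 6.94e-05. Snrpe 1451294_s_at had exosome signals of 334, 398, 337 and 509 and cell signals of 2884, 2607, 3597 and 4142. It fell by 3.05 ± 0.27 with an adjusted p of 8.18e-06, again with no overlap between the groups. Both were therefore detected in every exosome sample and lower there than in the cells, while the Snrpg difference dropped to -0.38 under quantile normalization and did not pass.

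Snrpc encodes the U1-C protein, which helps the U1 particle hold the start of an intron. Its 1416197_at signals were 1132, 888, 450 and 605 in exosomes and 758, 722, 1065 and 956 in cells. The groups overlapped, and the difference of -0.25 ± 0.33 did not pass (limma adjusted p = 0.536). The batches went opposite ways, with 0.44 in batch 1, which did not pass, and -0.95 in batch 2, which did (adjusted p = 0.0289). Between the batches the difference changed by -1.38, which did not pass (limma interaction, adjusted p = 0.0679). Quantile normalization and the scaling to the median of shared probe sets gave 1.61 and 0.79, and the scales of the hybridisation and poly-A controls gave -4.72 and -3.75, all past the threshold.

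Hnrnpf encodes a protein that binds runs of G in pre-mRNA. Its 1456664_x_at signals were 423, 490, 1845 and 1899 in exosomes and 1772, 2399, 2206 and 2501 in cells. The exosome arrays of batch 1 lay well below the cells, and those of batch 2 reached the lowest cell value. The pooled difference was -1.25 ± 0.50 (limma adjusted p = 0.0525), and it was smaller in batch 2 than in batch 1 by 1.84, with an adjusted interaction p of 0.0225. Hnrnpf 1437099_x_at had exosome signals of 291, 318, 605 and 515 against 609, 627, 788 and 875 in cells. Here every exosome array lay below every cell array, with a difference of -0.79 ± 0.32 that did not pass (adjusted p = 0.0557). Both passed when exosome replicate 3 or exosome replicate 4 was left out, with differences of -1.58 and -1.59 for 1456664_x_at and of -0.97 and -0.90 for 1437099_x_at. The other tested probe sets of Hnrnpf, 1450963_at and 1423382_a_at, exceeded the floor on no exosome array and were at least 3.55-fold and at least 4.98-fold lower.

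Hnrnpab encodes an RNA-binding protein of the A/B type, and its 1426114_at was the brightest member in exosomes. Its exosome signals were 11065, 11339, 1363 and 2235 against 1009, 1496, 738 and 819 in cells. The exosome arrays of batch 1 stood far above all cell arrays, and the lowest exosome value of batch 2 lay under the highest cell value. On the deposited scale it rose by 2.17 ± 0.65 (limma adjusted p = 0.015), by 3.18 within batch 1 and by 1.16 within batch 2, and the batches differed by -2.02 with an adjusted interaction p of 0.0411. The direction turned to -2.32 when arrays were scaled to the hybridisation controls and to -1.34 with the poly-A controls. It was also the only member above the 99th percentile of the background probe sets on all 4 exosome arrays.

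Sf3b4 encodes an SF3b subunit that binds pre-mRNA near the branch site. Its 1436784_x_at signals were 729, 651, 448 and 421 in exosomes and 68.0, 93.2, 84.3 and 63.4 in cells. Every exosome array lay above every cell array, and on the deposited scale the level rose by 2.78 ± 0.33 (limma adjusted p = 5.46e-05), while the difference was -1.63 with the hybridisation controls and -0.67 with the poly-A controls. The other Sf3b4 probe set, 1424619_at, had 819, 442, 363 and 333 in exosomes and 527, 502, 574 and 487 in cells. That difference of -0.19 ± 0.33 did not pass (adjusted p = 0.649), and it exceeded the floor on 3 exosome arrays.

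**Figure D4:**
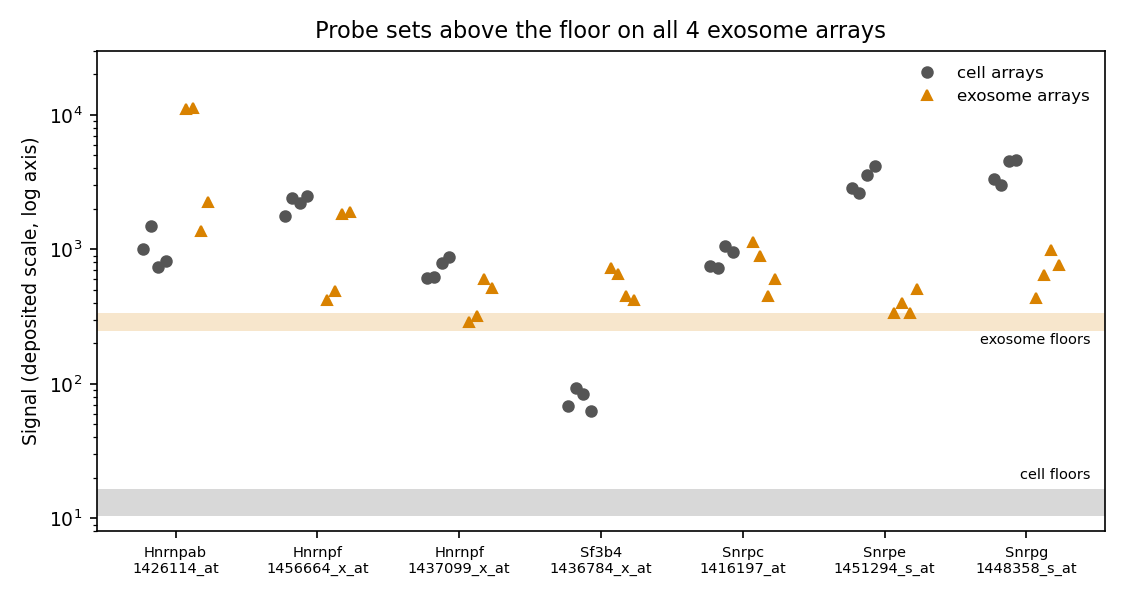
Signals of the 7 member probe sets above the floor on all 4 exosome arrays, 1 point per array on a log axis, exosome and cell arrays side by side, with the range of floors of each group shaded. Snrpe and Snrpg lie lower in exosomes with no overlap, Sf3b4 lies higher, and Hnrnpab spreads from 1363 to 11339 over the exosome arrays.

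Among the hnRNP genes, Hnrnpa2b1, whose protein was named above for its miRNA binding, was far under the floor on 1433829_a_at. Its signals there were 2.93, 26.9, 7.98 and 12.3 in exosomes and 1779, 1454, 2365 and 2805 in cells. No exosome array came near its floor, and the cell signal was at least 7.26-fold higher (limma adjusted p = 2.08e-06). All 4 Hnrnpa2b1 probe sets fell, and 3 of them were under the floor on every exosome array. The other, 1420365_a_at, exceeded the floor on exosome replicates 3 and 4 with signals of 125, 208, 489 and 515. Its cell signals were 2439, 2005, 2730 and 3264, and its fall was not called under quantile normalization.

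Hnrnpc, whose protein binds runs of U in nascent transcripts, had exosome signals of 111, 166, 241 and 218 and cell signals of 2729, 2761, 2867 and 3157 on 1460240_a_at. None of the exosome signals passed the floor, and the level was at least 10.2-fold lower in exosomes (limma adjusted p = 3.31e-06). Hnrnpk encodes a KH-domain protein that binds C-rich RNA. Its 1460547_a_at had 170, 104, 6.56 and 25.6 in exosomes against 2217, 2362, 2961 and 3602 in cells, which is at least 9.75-fold lower (adjusted p = 9.26e-05). Hnrnpk 1448176_a_at exceeded the floor on 2 exosome arrays and fell by 2.68 when dimmer signals were raised to the floor, and 1454692_x_at, dim in both groups, did not pass.

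Hnrnpu encodes a large nuclear RNA- and DNA-binding protein linked to the nuclear scaffold. On 1423050_s_at its signals were 134, 216, 137 and 83.0 in exosomes and 1244, 1360, 1782 and 1690 in cells. The bound was at least 5.36-fold lower (limma adjusted p = 1.46e-05), and 4 of its 5 tested probe sets fell. Of those, the dim 1434390_at turned to 1.46 with dimmer signals raised to the floor. Hnrnpa1, whose protein commonly represses splice sites, had 189, 179, 129 and 39.5 in exosomes and 539, 541, 883 and 882 in cells on 1455305_x_at, at least 2.46-fold lower with an adjusted p of 0.00117. Its 1436549_a_at also fell, and its dim 1455740_at did not pass.

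The remaining hnRNP genes were mostly lower as well. Hnrnpa0, Hnrnpm, Hnrnph3 and Hnrnpul1 each had 1 tested probe set, and all 4 were called lower. Hnrnpul1, above the floor on 2 exosome arrays, was not called under quantile normalization (-0.18), and Hnrnph3 turned to 0.55 with dimmer signals raised to the floor. Hnrnpdl had 7 tested probe sets, of which 6 fell and 1 did not pass. Both probe sets of Hnrnpll and both of Hnrnpul2 fell, while Hnrnpd and Hnrnph1 each had 1 fall and 1 tested probe set that did not pass. The probe set of Hnrnph2 and the tested one of Hnrnpl did not pass, with differences of -0.73 (adjusted p = 0.104) and -0.90 (adjusted p = 0.201) in limma.

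Among the SR genes, Srsf1, the founding member of the family, fell on all 6 of its tested probe sets. With dimmer signals raised to the floor, 1452430_s_at and 1428100_at were not called and 1430982_at turned to 0.02. The signals of 1428099_a_at were 135, 63.3, 141 and 89.8 in exosomes and 1478, 1524, 2046 and 2103 in cells. That is at least 6.29-fold lower, with a limma adjusted p of 5.2e-06. The other bright Srsf1 probe sets, 1434972_x_at and 1453722_s_at, were at least 5.58-fold and at least 4.14-fold lower. The seventh, 1457136_at, was under the floor on all 8 arrays and was not tested.

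Srsf3, the smallest SR protein and an adaptor for mRNA export, fell on 5 of 6 tested probe sets. Its 1416150_a_at had 167, 158, 252 and 172 in exosomes and 1410, 1497, 2524 and 2604 in cells, at least 6.88-fold lower (limma adjusted p = 1.23e-05). With dimmer signals raised to the floor, Srsf3 1416151_at turned to 0.62 and 1416152_a_at was not called. Srsf2, also known as SC35 and a marker of nuclear speckles, had 409, 133, 218 and 229 in exosomes and 1936, 1966, 2439 and 2636 in cells on 1427504_s_at. Exosome replicate 1 exceeded the floor, and the level fell by 2.79 on the log2 scale when dimmer signals were raised to the floor.

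Srsf4, Srsf5, Srsf6, Srsf9 and Srsf11 each had at least 1 probe set that fell. Srsf10, whose protein becomes a splicing repressor when it is dephosphorylated, had 1 of 4 tested probe sets lower. Its 1423982_at had exosome signals of 74.7, 56.2, 400 and 436 and cell signals of 220, 211, 193 and 262. The exosome arrays of batch 1 lay below the cells and those of batch 2 above them, and the batches differed by 2.56 (limma interaction, adjusted p = 0.0389). Srsf12 was under the floor on all 8 arrays and was not tested.

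Among the Sm and U-specific snRNP genes, Snrpf, the gene of another Sm ring protein, had 29.2, 9.72, 6.06 and 7.97 in exosomes and 544, 462, 1382 and 1176 in cells, at least 2.85-fold lower (limma adjusted p = 1.07e-05). Snrpa1 encodes the U2 A' protein, and its 1417351_a_at had 10.2, 76.6, 3.93 and 2.64 in exosomes and 627, 602, 1160 and 1412 in cells. That is at least 3.16-fold lower (adjusted p = 8.1e-05), and all 3 of its probe sets fell. Snrpb, the gene of the SmB and SmB' proteins, fell on both of its probe sets, and 1437193_s_at was at least 6.43-fold lower, from 1449, 1475, 2300 and 2143 in cells to 181, 73.2, 94.3 and 125 in exosomes. Snrpb2, the gene of the U2 B'' protein, fell on both of its tested probe sets. The other Snrpg probe set, 1448357_at, was at least 6.40-fold lower, although it and 1448358_s_at stand for 1 gene.

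Snrpn encodes the SmN protein, which is best known from the brain and comes from an imprinted locus. Its only single-symbol probe set was under the floor on all 8 arrays and was not tested.

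Among the SF3 genes, Sf3b1 encodes the large SF3b subunit that clamps the branch site. All 4 of its probe sets fell on the deposited scale. The dim 1418561_at turned to 1.56 with dimmer signals raised to the floor. On 1449138_at the level went from 1382, 1331, 1495 and 1561 in cells to 77.7, 110, 207 and 155 in exosomes. That is at least 5.13-fold lower, with a limma adjusted p of 1.51e-05. Sf3b6, whose small protein touches the branch adenosine, was measured by 1417054_a_at. Its exosome signals were 13.6, 25.7, 12.5 and 7.37 and its cell signals 948, 991, 1213 and 1313, at least 3.94-fold lower (adjusted p = 1.8e-06). Sf3a1, Sf3a3, Sf3b3 and Sf3b5 each had at least 1 probe set that fell, and none that rose. Sf3a2 1455546_s_at exceeded the floor on 3 exosome arrays, with 280, 402, 345 and 304 against 830, 769, 1030 and 705 in cells, and fell by 1.31 ± 0.27.

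The U2AF subunits stood closer to the cells than most members. U2af1 reads the AG at the end of the intron, and its signals were 300, 263, 317 and 270 in exosomes and 497, 500, 923 and 869 in cells. It exceeded the floor on 2 exosome arrays and fell by 1.21 ± 0.31 (limma adjusted p = 0.00676), or by 1.11 when dimmer signals were raised to the floor, and was not called under quantile normalization or the scaling to the median of shared probe sets. U2af2, which binds the pyrimidine tract before that AG, had 436, 559, 207 and 317 in exosomes and 403, 351, 283 and 269 in cells. The groups overlapped and the difference of 0.14 ± 0.36 did not pass (adjusted p = 0.754), with its sign turning to -0.07 without exosome replicate 2. It passed at 1.17 on the scale of the median of shared probe sets and was -4.28 on that of the hybridisation controls.

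Probe sets of 1 gene often gave different answers. Of the 33 genes with more than 1 tested probe set, 13 had every tested probe set lower and 14 had some lower and the rest uncalled. Calls went both ways in 5 genes, Hnrnpab, Hnrnpr, Srsf2, Sf3b2 and Snrpd3, and Sf3b4 had 1 rise and 1 uncalled probe set. Counting every gene by the tested probe set with the highest mean over all 8 arrays, 39 of 47 genes were lower, 1 was higher and 7 were not called. This rule favours bright probe sets. The share of all genes on the array counted this way is not given here, so these counts cannot be set against it. The single higher gene was Hnrnpab, and choosing by the highest mean over the cell arrays gave 40 lower and 0 higher, with 7 not called.

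Hnrnpab shows the disagreement most plainly, since 4 of its other probe sets fell. On 1455855_x_at the signals were 106, 106, 14.4 and 33.1 in exosomes and 2349, 2601, 3479 and 3883 in cells, at least 10.7-fold lower (limma adjusted p = 1.29e-05). Hnrnpab 1415914_at was at least 9.91-fold lower and 1453849_s_at at least 7.13-fold lower. The sequences behind the probe sets were not used here, so which transcript each one binds was not examined.

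The remaining rises were of probe sets that were dim in cells. Sf3b2, an SF3b subunit gene, had 179, 114, 132 and 155 in exosomes and 35.1, 17.7, 11.1 and 12.6 in cells on 1453123_at, and rose by 2.77 ± 0.45 (limma adjusted p = 0.000429) on the deposited scale. Every exosome array lay above every cell array, yet none passed the exosome floor, and 4 other Sf3b2 probe sets fell. Snrpd3, an Sm ring gene, showed the same on 1449629_s_at, with 155, 106, 124 and 149 against 28.1, 26.1, 19.9 and 21.4, and rose by 2.30 ± 0.39 (adjusted p = 0.000539) while its 1422884_at, under the floor on every exosome array, was at least 1.33-fold lower. That fall was not called with dimmer signals raised to the floor (-0.41), under quantile normalization or on the scale of the median of shared probe sets. On the scale of the hybridisation controls the rises of Sf3b2 1453123_at and Snrpd3 1449629_s_at turned, to -1.34 and -1.88, and they turned to -0.42 and -0.96 on that of the poly-A controls.

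Srsf2 1427816_at and Hnrnpr 1438807_at each exceeded the floor on 1 exosome array. The first had 270, 173, 173 and 18.0 in exosomes against 36.3, 26.3, 15.6 and 19.8 in cells and rose by 2.09 ± 0.74 (limma adjusted p = 0.0321), with -1.88 and -1.10 on the control scales. Hnrnpr 1438807_at had 34.6, 192, 457 and 332 against 72.6, 96.0, 16.5 and 17.8 and rose by 2.10 ± 0.82 (adjusted p = 0.0486), with -2.12 and -1.07 on the control scales. The groups overlapped in both. For Srsf2 1427816_at the call was lost without exosome replicate 1, 2 or 3 or cell replicate 2, 3 or 4, with differences of 1.69 to 2.14. For Hnrnpr 1438807_at it was lost without exosome replicate 2, 3 or 4 or cell replicate 1, 3 or 4, with differences of 1.67 to 2.38. The Hnrnpr difference was -0.01 in batch 1 and 4.22 in batch 2, and the change of 4.23 did not pass (limma interaction, adjusted p = 0.0759). Of the 6 rises on the deposited scale, 4 stayed called without each array in turn and none kept its direction under all 6 scalings. The hybridisation and poly-A control scalings lower the exosome arrays against the cell arrays by 4.51 and 3.52 on the log2 scale. Both shifts exceed every one of the 6 rises, so those turns were fixed beforehand and say nothing of single members.

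**Figure D5:**
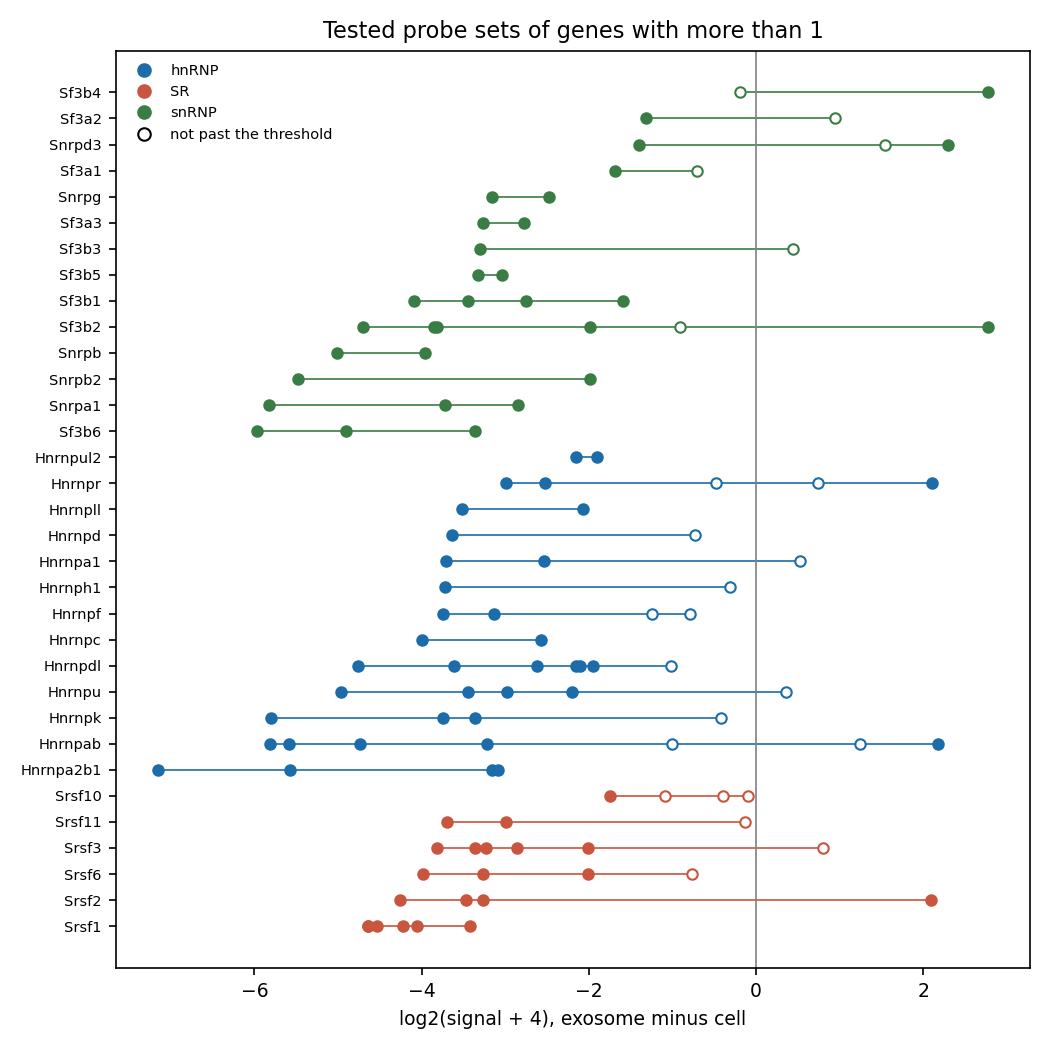
Exosome minus cell difference of log2(signal + 4) for every tested probe set of the 33 member genes with more than 1, a line per gene, with open points not past the threshold. The probe sets of Hnrnpab, Hnrnpr, Srsf2, Sf3b2 and Snrpd3 are called on both sides of 0, and those of Srsf1, Sf3b1 and Hnrnpa2b1 are all called lower.

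The difference between exosomes and cells was unequal between the hybridisation batches in 7 of 127 tested members, against 3.69% of all tested probe sets (limma interaction, adjusted p under 0.05). They were Hnrnpf 1456664_x_at, Hnrnpab 1426114_at and 1455855_x_at, Hnrnph1 1437267_x_at, Srsf9 1417727_at, Srsf10 1423982_at and Sf3b6 1436681_x_at. This interaction was examined after the data were seen.

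Other genes of the splicing pathway, taken from a list of 101 helicases, tri-snRNP proteins, exon junction proteins, SR kinases and splicing regulators, gave a comparison. Of these, 95 had a single-symbol probe set and 94 were tested. By the probe set with the highest mean, 71 genes were lower in exosomes, 4 were higher and 19 did not pass, with a median difference of -2.27. No array-wide share of genes counted this way is given here. Over probe sets, 126 of 239 tested were lower, or 52.7%, and 23 were higher, or 9.62%, beside the array-wide 37.5% and 17.9%. By their best-measured probe set, 3 of these genes exceeded the floor on all 4 exosome arrays and 72 on none.

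Counting each gene by its probe set with the highest mean, the largest fitted falls on that list, all with exosome signals under the floor, were of Snrnp25, a protein of the minor spliceosome, at least 2.59-fold lower, of Puf60, a partner of U2AF, at least 3.16-fold lower, and of Lsm8, a ring protein of U6, at least 4.34-fold lower. Counted the same way, the largest rises on the deposited scale were of Ddx23, Ptbp1 and Srpk2, by 3.68, 2.90 and 1.36 on the log2 scale. Ddx23, a tri-snRNP helicase gene, exceeded the floor on 2 exosome arrays, and its difference turned to -0.44 with the hybridisation controls and stayed positive, at 0.45, with the poly-A controls. Ptbp1, a repressor of exon inclusion, rose on 1458284_at with 1332, 134, 540 and 623 in exosomes against 58.4, 98.5, 49.8 and 54.5 in cells, while its 1424874_a_at was at least 3.95-fold lower. The 1458284_at difference turned to -1.48 and -0.50 on the scales of the hybridisation and poly-A controls. Srpk2, an SR protein kinase, exceeded the floor on no exosome array with 1431372_at, whose difference turned to -2.90 and -1.93 on those scales.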

How the data were processed

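Affymetrix Mouse430_2 arrays measured RNA of MC/9 exosomes and of MC/9 cells, with 4 arrays each. The intensity values per probe set, on a linear scale, are those the authors deposited, made with GCOS per the submitters' processing notes. Its version, probe summary and treatment of background are not given here. Each array's deposited intensity has a 2% trimmed mean of 100.

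Members, lists and tests were chosen with earlier results of these data known. Gene names came from the platform annotation. Of its probe sets, 34945 had 1 symbol, 932 had several and 9160 had none, and 34741 matched the RefSeq gene table of GRCm38.p6, with 0 member symbols changed. Probe sets with several symbols were not used. Log2(signal + 4) was fitted with limma 3.58.1 (lmFit, eBayes with a trend) in R 4.3.3, two-sided, on all 8 arrays, and was tested on simulated data. The 4 added before the log shrinks differences of dim probe sets. The background probe sets had medians of 63.6 to 73.9 on exosome arrays against 2.02 to 3.06 on cell arrays. Without a filter on low values the median difference of all probe sets was 2.00, so rises of probe sets dim in cells can be overstated. The floor, filter and bounds are defined where first used. The text names members detected on every exosome array, the 3 largest falls and rises of each class, genes called both ways and 14 genes in any case, of which Snrpd1 has no single-symbol probe set. Other members are named to account for all of them, chosen after their values were seen.

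Separate cultures are not stated for the replicates, and the p-values may cover technical spread only. The number of arrays limits precision. Same-numbered exosome and cell arrays deviated from their group means with correlations of -0.0744 to 0.0084. Most exosome signals lay under the floor, so this check cannot show whether the numbers pair samples. The main fit used no pairing. Of the member probe sets, 22 have names ending in s_at, 17 in x_at and 28 in a_at, designs that can bind several transcripts, so their genes are less certain. Alternatives were other pseudocounts, floors, scalings, blocks, batches and arrays left out.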

Additional observations from a re-analysis of the deposited data

Results flagged for a closer look

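In 90 groups of 4 signals, those of the named members in each group, 3 held 1 array far from the other arrays by Dixon's test, which flags about 1 in 20 groups by chance. All 3 were the highest exosome signal of a probe set that lay under the floor on every exosome array. Srsf1 1452430_s_at had 41.1 on exosome replicate 4 against 4.45 to 6.76 on the others. Srsf2 1415807_s_at had 119 on exosome replicate 3 against 25 to 25.7. Sf3b2 1456040_at had 120.02 on exosome replicate 3 against 8.52 to 13.5. The falls of all 3 were called with any single array left out.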

How the results depend on the processing

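The number of members lower in exosomes, 93, lay between 75 and 127 under every alternative run, and the falls of each class stayed within 1.5 times their counts. Of all probe sets fitted, 18% (no filter) to 94.3% (hybridisation controls) were lower in these settings. The number higher, 6, depended on the processing. With every probe set tested 17 members rose, 5 of hnRNP, 4 of SR and 8 of snRNP genes, where 59% of all probe sets rose. With dimmer signals raised to the floor 30 rose, 15 of hnRNP, 6 of SR and 9 of snRNP genes, against 67.6% of all tested probe sets, which that setting produces wherever the exosome floor exceeds the cell signal. Scaled to the median of the 432 probe sets detected on every array, added after the data were seen, 14 rose, 4 of hnRNP, 2 of SR and 8 of snRNP genes, against 28.7% of all. On the scale of either set of control probe sets, hybridisation or poly-A, 0 rose in any class, against 1.25% and 1.44% of all. With the floor at the 99th percentile 2 rose, 1 of hnRNP, 0 of SR and 1 of snRNP genes, against 10.1% of all tested there. In that setting 1 member exceeded the floor on all exosome arrays. The hnRNP rises numbered 1 with pseudocount 1, without a trend, with quantile normalization, with the background subtracted, when scaled to the mean of those 432 probe sets, with the batch as a block and within batch 1, and 4 within batch 2. Of all tested probe sets, 7.34% (quantile normalization) to 19.7% (batch 2) rose in those settings. The SR rise was lost, leaving 0, with quantile normalization, with the background subtracted and within batch 2. With arrays left out in turn, SR rises ranged from 0 to 1, hnRNP rises from 1 to 2 and all falls from 88 to 96. In those fits 33.1% to 38.1% of all tested probe sets fell and 14.2% to 18.5% rose. Choosing a gene's probe set by its cell signal left 0 higher genes. Replicate numbers are shared by the groups, and whether they pair samples is not known. With the replicate number as a block, 93 members fell and 5 rose, with 1 hnRNP rise, against 36.7% and 16.5% of all.

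Signs turned on the scale of the hybridisation controls for Hnrnpab 1426114_at (-2.32), Hnrnpr 1438807_at (-2.12), Srsf2 1427816_at (-1.88), Snrpd3 1449629_s_at (-1.88), Sf3b4 1436784_x_at (-1.63), Sf3b2 1453123_at (-1.34) and U2af2 (-4.28). On that of the poly-A controls the same differences were -1.34, -1.07, -1.10, -0.96, -0.67, -0.42 and -3.33. These 2 scalings lower the exosome arrays against the cell arrays by 4.51 and 3.52 on the log2 scale. Each shift is larger than any of these differences on the deposited scale, so the signs had to turn. Quantile normalization turned Snrpc to 1.61 and Hnrnpf 1456664_x_at and 1437099_x_at to 0.69 and 0.84. The scaling to the median of shared probe sets turned Snrpc to 0.79 and Hnrnpf 1437099_x_at to 0.25. Batch 1 alone gave 0.44 for Snrpc and -0.0088 for Hnrnpr. For U2af2, the background subtraction gave -0.20, batch 2 alone -0.10, the scaling to the 432 shared probe sets -0.0068, and leaving out arrays in turn values from -0.0726 (without exosome replicate 2) to 0.399. The cause of the turns outside the control scales was not tested. The high exosome floor limits what can be said of any member dimmer than it in cells.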

Other observations

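Beyond the members, 5 probe sets of the wider list of splicing genes exceeded the floor on all 4 exosome arrays, and they are named here after their values were seen. Sfpq 1439058_at, of a nuclear protein that forms a pair with the Nono protein in paraspeckles, had 359, 283, 594 and 437 in exosomes and 20.7, 9.85, 11.4 and 17.0 in cells. Every exosome array lay above every cell array, and the level rose by 4.48 ± 0.41 on the log2 scale (limma adjusted p = 1.06e-05). Its difference stayed positive under all 6 scalings, the lowest being 0.31 with the hybridisation controls, which did not pass. The Sfpq rise is larger than any member rise and about the size of the 4.51 by which those controls lower the exosome arrays. Of the 5 other tested Sfpq probe sets, 4 fell and 1 did not pass, and none of them exceeded the floor on any exosome array.

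Nono 1448103_s_at had 866, 637, 476 and 598 in exosomes and 2870, 2631, 3307 and 3332 in cells, and fell by 2.26, with a difference of -0.20 under quantile normalization that was not called. Rnps1 1437027_x_at, of an exon junction protein, had 510, 462, 487 and 469 in exosomes and 1202, 1184, 1828 and 2042 in cells, and fell by 1.65 on the deposited scale, with a difference of 0.38 under quantile normalization. Cdc5l, a core component of the Prp19 complex, had both of its probe sets above the floor in all exosome samples. Its 1428092_at rose by 1.1 on the deposited scale, from 434, 430, 282 and 322 in cells to 836, 703, 957 and 661 in exosomes, and turned to -3.36 and -2.38 on the scales of the hybridisation and poly-A controls. Its 1460429_at overlapped between the groups with a difference of -0.40.

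A further 16 probe sets carry a member symbol together with other symbols, and none was used above. Of these, 12 were detected in all 4 cell samples and 3 in all 4 exosome samples. Which of the genes gives their signal cannot be told apart.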
